A study of Drosophila melanogaster with 8 samples.

Results

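The genes described here carry the symbols of cytosolic ribosomal proteins of Drosophila melanogaster. They were taken as all probe sets annotated to 1 gene whose current symbol begins with RpL, RpS or RpLP followed by a digit, with S6 kinases left out. This gave 47 probe sets of 41 genes, out of 13646 probe sets and 11982 genes with a single-gene annotation and 18952 probe sets on the array. By symbol, 25 genes (27 probe sets) were assigned to the large subunit and 16 genes (20 probe sets) to the small subunit. RpL3, RpS29, RpS30 and RpS7 had more than 1 probe set each. A further 3 probe sets matched several genes, at least 1 of them a ribosomal protein gene, and were not used. Another 4721 probe sets of the array were not listed in the annotation, so the set may lack ribosomal protein genes. By the RefSeq genes of Release 6 plus ISO1 MT, 14 of the genes lay on 3R, 10 on 2R, 9 on 2L, 5 on 3L and 3 on the X, namely RpL17, RpL37-1 and RpS28b.

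The cytosolic ribosome translates nuclear mRNA. Its small subunit reads the message, and its large subunit forms the peptide bond and releases the chain through an exit tunnel. Each mature ribosome carries about equal numbers of most of its proteins, their genes are among the most strongly transcribed of the fly, and loss of a single copy of many of them gives the Minute phenotype of slow growth and thin bristles. Several are duplicated in flies, and some copies are used mainly in the germline.

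The study asked which female genes differ in expression after mating with a more preferred against a less preferred male. In ZxZ, females of SZ had mated with males of the same line, and in ZxM, females of SZ had mated with males of LHM, an outbred M strain. SZ is a composite population bred from 6 isofemale lines of Zimbabwe, so that all females came from 1 population, and no unmated female was measured. All females were virgin and 7 days past eclosion when they were mated individually, and they were frozen 30 minutes after copulation ended. Each sample was RNA of 8 pooled whole females, with 4 independently extracted pools per mating and 1 Affymetrix Drosophila Genome 2.0 array per pool. Matings of both kinds were made in each of the 4 replicates.

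The values are log2 expression levels, which run from 6.05 to 15.15 over all probe sets. The arrays were not on identical scales. The 75th percentile of all probe sets was 9.54, 9.52, 9.49 and 9.46 in ZxZ against 9.61, 9.55, 9.64 and 9.56 in ZxM, with no overlap (two-sided exact permutation test, p = 0.0286, which is the minimum for 4 arrays against 4, adjusted 0.257 across 9 array measures). The 9 hybridisation control probe sets, which read bacterial and bacteriophage transcripts added to every array, averaged 11.38, 11.45, 11.16 and 11.17 in ZxZ against 11.12, 10.94, 11.35 and 10.83 in ZxM. All 9 had the higher mean in ZxZ, by 0.18 to 0.28, although the groups overlapped and the difference of 0.23 did not pass (exact permutation test, two-sided, p = 0.114, adjusted 0.309). The 3′ minus 5′ difference of the actin controls was 0.454 ± 0.0506 in ZxZ and 0.493 ± 0.0834 in ZxM (SD, n = 4 each).

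Ribosomal protein transcripts lay in 3 ranges of level, a division made after their values were seen. At the top, 30 genes had means over the 8 arrays of 13.91 to 14.92, and they supplied 29 of the 100 brightest probe sets of the array (29.0%). Between 10.75 and 12.85 there were 4 genes, RpL34a, RpL24-like, RpL7-like and RpLP0-like. The remaining 7 genes, RpS28a, RpL37-2, RpS19b, RpS10a, RpL10Aa, RpS28-like and RpL22-like, were below 8, close to the lowest values of the array, where a level cannot be told from no expression. Probe sets differ in how brightly they report a transcript, so these ranges describe probe sets and do not order transcript amounts.

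**Figure D1:**
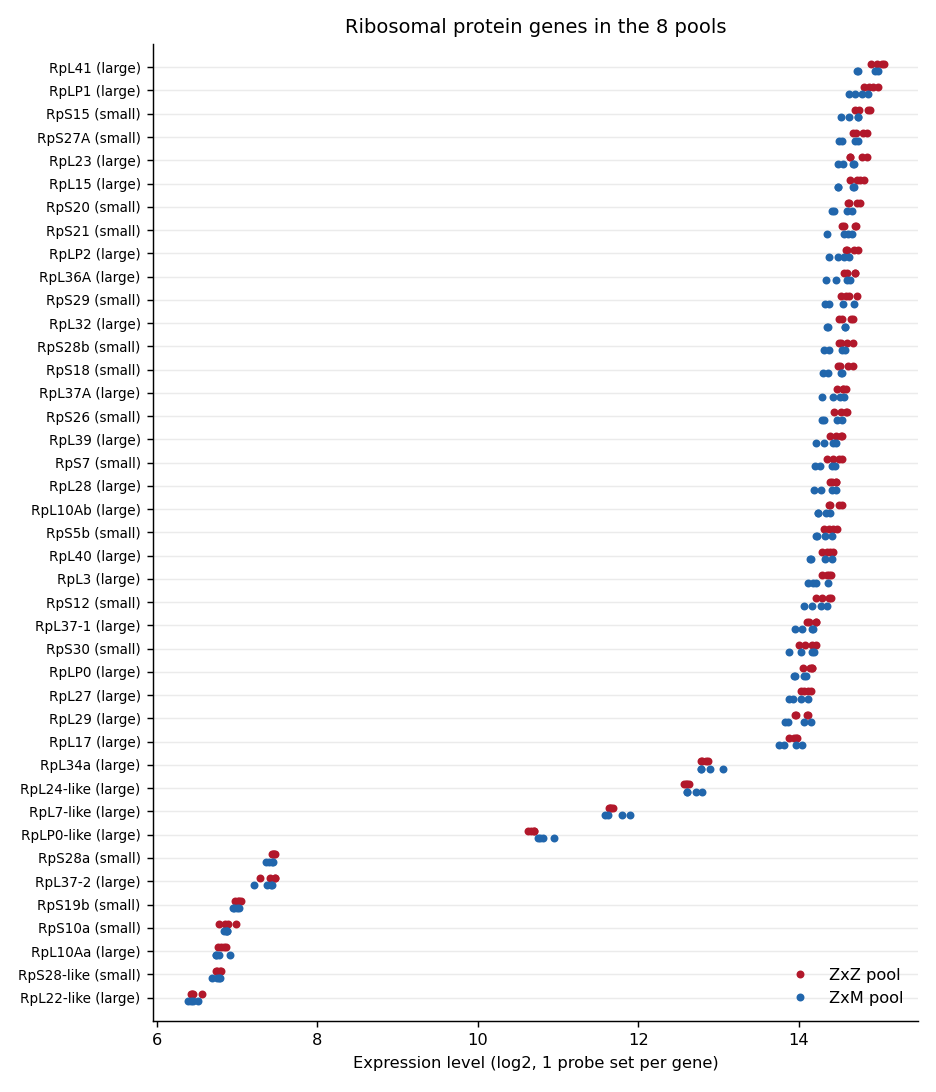
Log2 expression level (x axis) of each of the 41 ribosomal protein genes (rows, brightest at the top) in the 4 ZxZ pools (red, upper points) and the 4 ZxM pools (blue, lower points). The 30 bright genes sit at 13.91 to 14.92 on average, 4 genes at 10.75 to 12.85 and 7 genes below 8.

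The highest level was that of RpL41, the smallest protein of the ribosome, at 15.04, 15.05, 14.97 and 14.90 in ZxZ against 14.98, 14.74, 14.94 and 14.72 in ZxM. The lowest was that of RpL22-like, a copy of RpL22 known from the male germline, at 6.43, 6.44, 6.45 and 6.56 in ZxZ against 6.52, 6.45, 6.39 and 6.43 in ZxM. The groups overlapped for both. RpS19b, a copy of RpS19 known from the germline and named after its values were seen, was also near the lowest levels, at 6.97 to 7.05 in ZxZ and 6.95 to 7.02 in ZxM. These genes do not stand for all copies. RpS5b, which also has the symbol of a copy, was bright, with means of 14.39 in ZxZ and 14.29 in ZxM and overlapping groups.

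No ribosomal protein gene was called different between ZxZ and ZxM. With the filter of the study's methods, which keeps the more variable genes, 32 of the 41 were tested by limma and 0 passed a false discovery rate of 10%, beside 18.7% of all 5991 genes tested (1.1% higher in ZxZ and 17.6% higher in ZxM). That share itself rested on the setting, since 0 of all genes were called without array weights, after quantile normalization, or without ZxZ replicate 3 or 4 or ZxM replicate 1 or 3, and 49.5% were called without ZxM replicate 4. The smallest adjusted p from limma was 0.123, for RpLP1. At an unadjusted limma p under 0.05 stood 3 of the 32 (RpLP1, RpL3 and RpL10Ab, all higher in ZxZ), where 3.19% of all genes tested were higher in ZxZ at that threshold. The other 9 genes varied too little to pass the filter.

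Without the filter every gene has a value, and the differences, standard errors and adjusted p given from here on come from that fit over all 11982 genes. It called none of them, so 0 of the 41 ribosomal protein genes passed, and their smallest adjusted p was 0.152. At an unadjusted p under 0.05, 10 members were higher in ZxZ (2.85% of all genes) and 1 was higher in ZxM (18.3% of all genes). The 10 were RpLP1, RpLP2, RpLP0, RpL3, RpL10Ab and RpL15 of the large subunit and RpS20, RpS15, RpS27A and RpS26 of the small subunit, and the 1 was RpLP0-like. Over the 47 probe sets 0 passed, as did 0 of all 13646.

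The direction was nevertheless shared. As deposited, 37 of the 41 genes had a positive ZxZ minus ZxM difference, beside 37.5% of all genes, and their median was 0.11, a ratio of 1.08, beside -0.03 over all genes. After the arrays had been given identical distributions by quantile normalization, with the same probe sets kept, 21 of the 41 were positive, beside 50.2% of all genes, the median was below 0.01 in size and 0 members were at an unadjusted p under 0.05 (7.76% of all genes). With the arrays instead centred on the hybridisation controls, the median was -0.17 and 0 of the 41 were positive, in a setting that shifted the median of all genes to -0.33. After cyclic loess, another normalization, the members' median was 0.043 with 33 of the 41 positive, beside a median below 0.01 in size over all genes. Control centring and cyclic loess took dimmer probe sets for RpL3, RpS29, RpS30 and RpS7. With the probe sets kept, the members' median was -0.16 after control centring and 0.05 after cyclic loess. The members' median was therefore above that of all genes as deposited, after cyclic loess and when centred on the controls. It was level with that of all genes after quantile normalization, which leaves the brightest probe sets little room to differ. Control centring shifts all genes of an array alike, so it gives no separate observation of that gap.

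**Figure D2:**
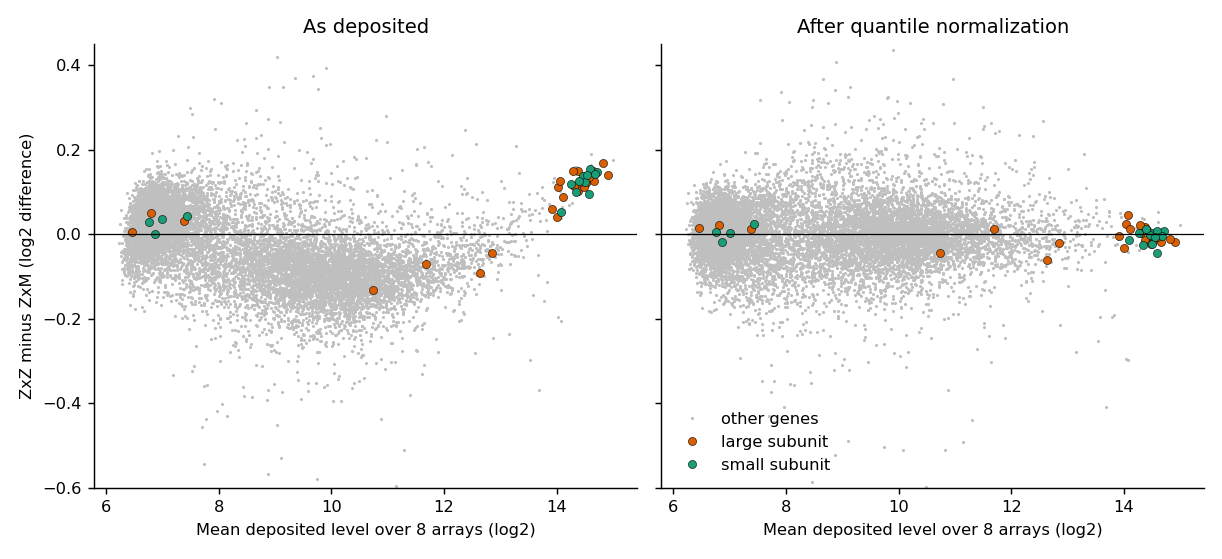
Difference ZxZ minus ZxM (y axis, log2) against mean deposited level (x axis, log2) for the ribosomal protein genes of the large (orange) and small (green) subunit and all other genes (grey), as deposited (left) and after quantile normalization (right), with 8 genes outside the axis in each panel. As deposited, the bright ribosomal protein genes lie above 0 and the 4 of intermediate level below it, as do most other genes of their level.

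The size of the difference went with the level. Among the 30 bright members, all were positive as deposited, from 0.04 to 0.17 with a median of 0.13, whereas after quantile normalization 14 of the 30 were positive and on the hybridisation control scale the median was -0.15. The 101 other genes at a level of 13 or above, most of them dimmer than the members, had a median of 0.03 and 66.3% of them were positive. In narrower ranges, the 15 members from 14 to 14.5 had a median of 0.11 and the 15 other genes of that range one of 0.10 with 13 positive, and the 14 members from 14.5 to 15 had a median of 0.14 and the 5 other genes one of 0.16 with 5 positive. Among the 4 members between 8 and 13 the median was -0.08, and among the 6207 other genes of that range it was -0.09 with 11.6% positive. Below 8, the medians were 0.03 for the 7 members and 0.02 for 5633 other genes. Members and other genes thus had similar medians below 8, between 8 and 13 and in both narrower ranges above 14, but not over the whole range from 13 upward, within which the members were brighter. The other genes from 14 to 14.5 included Rack1, eEF5, eEF1gamma and Nacalpha of the translation machinery and the eggshell genes Cp36 and Cp38. Those from 14.5 to 15 included the yolk genes Yp1, Yp2 and Yp3. The comparisons by level were not tested.

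The bright members also varied together from pool to pool. Their mean level was 14.53, 14.56, 14.45 and 14.41 in ZxZ against 14.45, 14.31, 14.48 and 14.24 in ZxM. ZxM replicates 2 and 4 were the lowest pools and ZxM replicates 1 and 3 lay within the range of ZxZ, so that the groups overlapped. The group means were 14.49 ± 0.0679 in ZxZ and 14.37 ± 0.115 in ZxM (SD, n = 4 each), a ratio of 1.08. The hybridisation controls ranked the 4 ZxM arrays in the same order, with replicate 3 highest, then 1, 2 and 4, and in ZxZ they also put replicates 2 and 1 above 3 and 4. What part the array scale had in the difference of the ribosomal protein genes was not tested. After quantile normalization the mean of the bright members was 14.43 ± 0.00556 in ZxZ and 14.43 ± 0.00504 in ZxM (SD, n = 4 each). Quantile normalization gives all arrays the same top values, and members supplied 29 of the 100 brightest probe sets. That mean therefore had little room to differ between arrays, and its closeness does not decide how the transcripts differed.

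**Figure D3:**
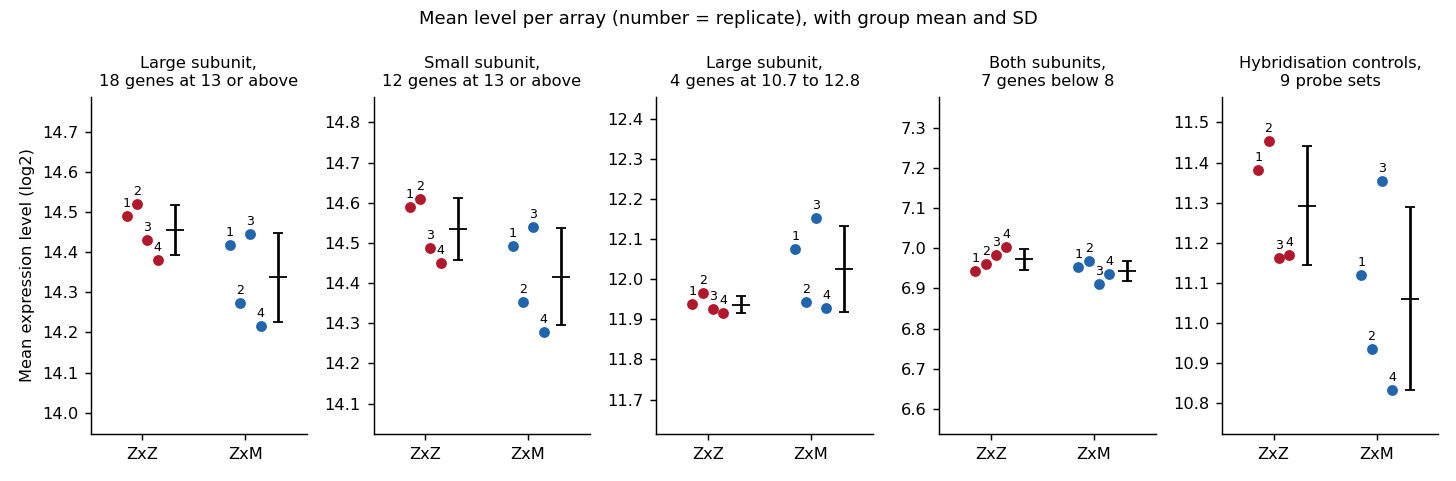
Mean log2 level per array (y axis, a range of its own in each panel) in ZxZ (red, left) and ZxM (blue, right) for 5 sets of probe sets, with replicate numbers on the points and group means with SD as bars. The bright genes of both subunits and the hybridisation controls share a low position of ZxM replicates 2 and 4, whereas the 4 genes of intermediate level are highest in ZxM replicates 1 and 3.

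Taking each gene's deviations from its own group means over the 8 arrays, pairs of bright members correlated at a median r of 0.922 (435 pairs), pairs of other genes at 13 or above at 0.703 (5050 pairs) and pairs of members below 8 at 0.0505 (21 pairs). These pairs share the same 8 arrays and their scale, and the values are descriptive.

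The differences of large and small subunit genes were of like size. The median difference was 0.11 over the 25 large subunit genes, 21 of them positive, and 0.12 over the 16 small subunit genes, 16 of them positive, and on the hybridisation control scale the medians were -0.17 and -0.19. All 4 negative genes were of the large subunit and were the 4 of intermediate level. Restricted to the bright genes, the mean of the 18 large subunit genes was 14.45 ± 0.0621 in ZxZ and 14.34 ± 0.111 in ZxM, and that of the 12 small subunit genes 14.53 ± 0.0771 in ZxZ and 14.42 ± 0.121 in ZxM (SD, n = 4 each). Both differed by 0.12 as deposited, and after quantile normalization by 0.001 for the large and by -0.01 for the small subunit. Large minus small, taken within each array over all genes, was 0.487 ± 0.0165 in ZxZ and 0.509 ± 0.00889 in ZxM (SD, n = 4 each), a difference of -0.02 that reached 0.01 with the opposite sign after quantile normalization. With the probe sets held, the quantile-normalized difference was 0.003. Over the bright genes alone it was -0.0799 ± 0.0184 in ZxZ and -0.0786 ± 0.0137 in ZxM (SD, n = 4 each).

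**Figure D4:**
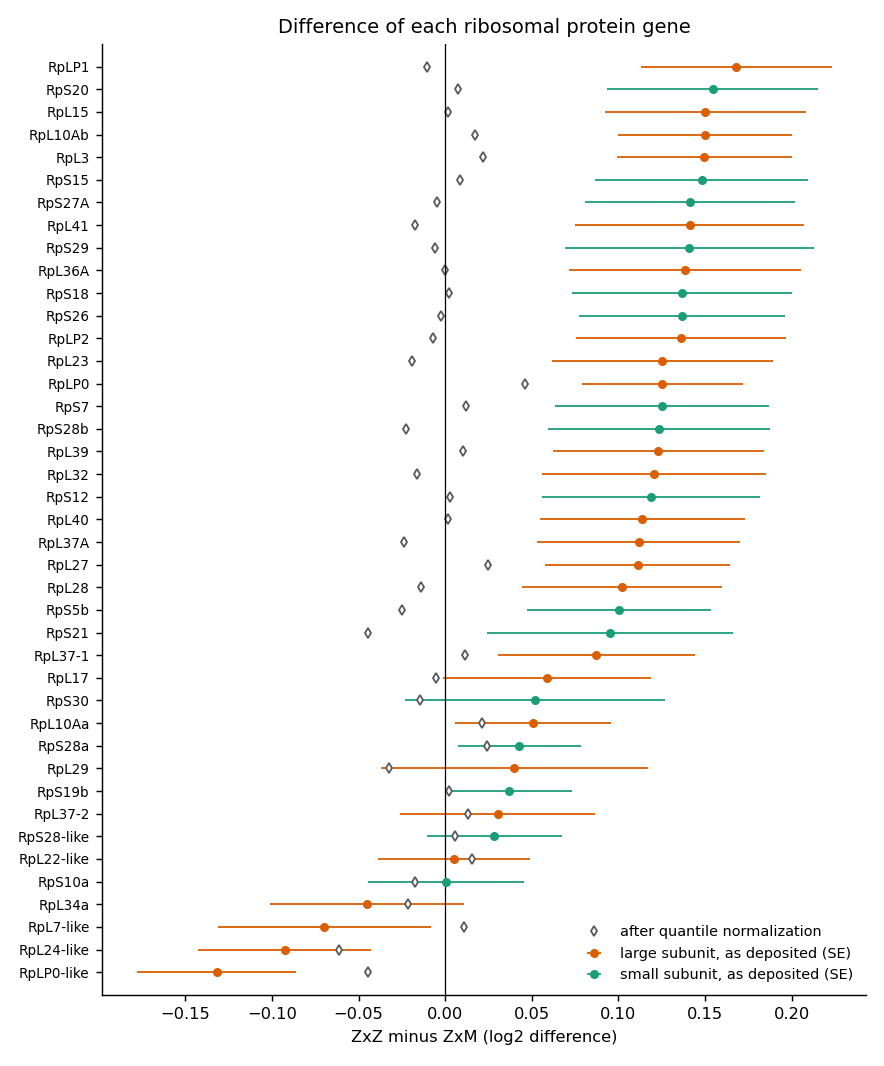
Difference ZxZ minus ZxM (x axis, log2) of each of the 41 genes (rows), as deposited with its standard error from limma (large subunit orange, small subunit green) and after quantile normalization (open diamonds). As deposited 37 genes lie above 0 and 4 below, and after quantile normalization 21 lie above it.

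In the large subunit the largest difference was that of RpLP1, an acidic protein of the lateral stalk that recruits elongation factors. Its level was 14.93, 14.98, 14.87 and 14.81 in ZxZ against 14.79, 14.70, 14.86 and 14.63 in ZxM, a difference of 0.17 (SE 0.0552, adjusted p = 0.152, limma). ZxM replicate 3 reached the level of the ZxZ pools, and the other 3 ZxM pools were below all of them. RpLP2, its partner in the stalk, differed by 0.14 (SE 0.0607) and RpLP0, the protein that anchors the stalk to the subunit, by 0.13 (SE 0.0465). After quantile normalization the differences of these stalk proteins were -0.01, -0.01 and 0.05, in the same order.

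RpL3, which lies beside the peptidyl transferase centre, had levels of 14.35, 14.39, 14.37 and 14.29 in ZxZ against 14.22, 14.18, 14.37 and 14.12 in ZxM, a difference of 0.15 (SE 0.0505, adjusted p = 0.157, limma). All ZxZ pools were above ZxM replicates 1, 2 and 4, and ZxM replicate 3 was among them. RpL3 had 2 further probe sets, at 9.13 in ZxZ against 9.11 in ZxM and at 7.36 in ZxZ against 7.42 in ZxM, with differences of 0.05 and -0.03. RpL10Ab, the protein of the L1 stalk beside the exit site, had levels of 14.49, 14.53, 14.39 and 14.37 in ZxZ against 14.34, 14.24, 14.39 and 14.23 in ZxM, a difference of 0.15 (SE 0.0503, adjusted p = 0.156, limma). Here too only ZxM replicate 3 lay within the ZxZ range. RpL15, a protein of the core of the large subunit, differed by 0.15 (SE 0.0580), with a quantile-normalized difference below 0.01. The remaining bright genes of the large subunit differed by 0.04 for RpL29 to 0.14 for RpL41, and on the hybridisation control scale every one of these was negative.

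In the small subunit the largest difference was that of RpS20, a protein of the head of the subunit, with 14.72, 14.76, 14.62 and 14.61 in ZxZ against 14.59, 14.43, 14.66 and 14.41 in ZxM, a difference of 0.15 (SE 0.0609, adjusted p = 0.193, limma). RpS15, which lies near the decoding site, had levels of 14.85, 14.88, 14.75 and 14.69 in ZxZ against 14.74, 14.62, 14.73 and 14.52 in ZxM, a difference of 0.15 (SE 0.0615, adjusted p = 0.207, limma). In both genes ZxM replicates 2 and 4 were the lowest pools, and replicates 1 or 3 reached the lower ZxZ pools. RpS27A, made as a fusion with ubiquitin, differed by 0.14 (SE 0.0607, adjusted p = 0.217, limma) and RpS26, which lines the channel by which mRNA leaves, by 0.14 (SE 0.0596, adjusted p = 0.223, limma). RpL40, the ubiquitin fusion of the large subunit, differed by 0.11 (SE 0.0593), and RpS30, made as a fusion with a ubiquitin-like protein, by 0.05 (SE 0.0752). After quantile normalization RpS27A, RpS26 and RpS30 were negative and RpS20, RpS15 and RpL40 positive, each below 0.02 in size.

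The 3 X-linked genes were all of the bright range. RpL17, whose protein lines the exit tunnel, differed by 0.06 (SE 0.0600), RpL37-1 by 0.09 (SE 0.0568) and RpS28b by 0.12 (SE 0.0641), all inside the range of the bright autosomal genes, and after quantile normalization by -0.01, 0.01 and -0.02.

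The 4 genes of intermediate level had negative differences as deposited, as had most genes of their level, and 3 of them were negative after quantile normalization. For 3 of them the name marks resemblance to a ribosomal protein, and their yeast counterparts Mrt4, Rlp24 and Rlp7 are assembly factors of the large subunit rather than parts of the finished ribosome. RpLP0-like, the counterpart of Mrt4, had levels of 10.62, 10.70, 10.70 and 10.66 in ZxZ against 10.81, 10.77, 10.94 and 10.75 in ZxM, a difference of -0.13 (SE 0.0459, adjusted p = 0.164, limma). It was the only member whose groups did not overlap, where 8.7% of all genes had non-overlapping groups with ZxM higher and 1.54% with ZxZ higher. It was among the 9 genes that the variability filter left untested.

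RpL24-like, the counterpart of Rlp24, had levels of 12.61, 12.64, 12.59 and 12.57 in ZxZ against 12.79, 12.60, 12.71 and 12.61 in ZxM, a difference of -0.09 (SE 0.0499, adjusted p = 0.30, limma). RpL7-like, the counterpart of Rlp7, had levels of 11.68, 11.65, 11.63 and 11.64 in ZxZ against 11.80, 11.62, 11.90 and 11.59 in ZxM, a difference of -0.07 (SE 0.0615, adjusted p = 0.517, limma) that was 0.01 after quantile normalization. RpL34a, a protein of the mature large subunit, had levels of 12.84, 12.87, 12.78 and 12.79 in ZxZ against 12.89, 12.78, 13.06 and 12.77 in ZxM, a difference of -0.05 (SE 0.0560, adjusted p = 0.656, limma). In all 3 genes ZxM replicates 1 and 3 were the highest of the 8 pools, and ZxM replicates 2 and 4 lay within or below the ZxZ range. RpL7-like and RpL34a were named after their values were seen.

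Within an array, the mean of the bright members minus that of the 4 intermediate genes was 2.59, 2.59, 2.53 and 2.49 in ZxZ against 2.37, 2.36, 2.33 and 2.31 in ZxM, a difference of 0.21 with no overlap. It is given with no test because the sets were formed after the values were seen, and because the differences of all genes on these arrays changed with level. After quantile normalization the intermediate genes averaged 11.97 ± 0.0397 in ZxZ and 12.00 ± 0.0331 in ZxM (SD, n = 4 each).

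Paralogue pairs were compared as the log2 ratio of both genes within an array, over 6 pairs with p adjusted across them, where 0.0286 is the smallest exact p that 4 arrays against 4 allow. A ratio cancels a scale factor common to an array but not one that changes with level. RpLP0 minus RpLP0-like was 3.54, 3.44, 3.46 and 3.39 in ZxZ against 3.25, 3.18, 3.14 and 3.19 in ZxM, a difference of 0.27 with no overlap (exact permutation test, two-sided, p = 0.0286, adjusted 0.171). After quantile normalization it was 0.09 (exact permutation test, two-sided, p = 0.171, adjusted 0.514). In each of the other 5 pairs at least 1 copy was below 8, where its level cannot be told from no expression, so these ratios are given as descriptions and not as a balance between copies.

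RpL10Aa minus RpL10Ab, a dim copy against the bright one, was -7.70, -7.69, -7.53 and -7.61 in ZxZ against -7.60, -7.33, -7.61 and -7.50 in ZxM. RpL37-1 minus RpL37-2, copies of a zinc-binding protein of the large subunit of which RpL37-2 was the dim one, was 6.92, 6.81, 6.66 and 6.63 in ZxZ against 6.75, 6.66, 6.94 and 6.52 in ZxM. The groups overlapped in both. Of the RpS28 copies, of a small subunit protein, only RpS28b was bright. Its 2 ratios and that of the dim RpS28-like over RpS28a also overlapped between ZxZ and ZxM.

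**Figure D5:**
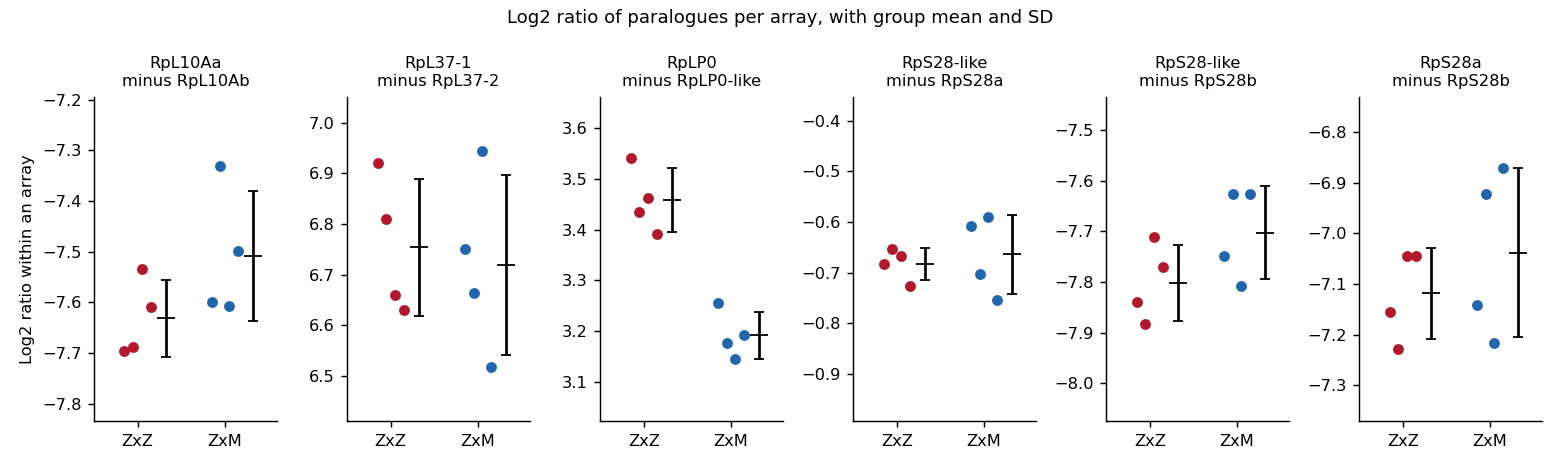
Log2 ratio of each of 6 paralogue pairs within an array (y axis, a range of its own in each panel) in the 4 ZxZ pools (red, left) and the 4 ZxM pools (blue, right), with group means and SD as bars. RpLP0 minus RpLP0-like is 3.39 to 3.54 in ZxZ and 3.14 to 3.25 in ZxM, and the groups overlap in the other 5 pairs.

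The dim copies carried little signal. RpS10a had levels of 6.89, 6.78, 6.85 and 6.99 in ZxZ against 6.87, 6.87, 6.84 and 6.88 in ZxM, a difference below 0.01. RpS28-like had levels of 6.75, 6.79, 6.81 and 6.73 in ZxZ against 6.79, 6.74, 6.77 and 6.69 in ZxM, a difference of 0.03. The differences of the 7 dim genes ran from below 0.01 to 0.05, their groups overlapped, and their adjusted p from limma ran from 0.492 to 0.996. In the other genes with several probe sets, the dimmer probe sets of RpS7 (-0.0044), RpS30 (-0.09) and RpS29 (-0.05) were negative beside bright ones that were positive as deposited, so that the sign of a gene could depend on the probe set.

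Other genes of the translation machinery had differences near those of genes of their level. Rack1, a small subunit protein with another kind of symbol, averaged 14.30 in ZxZ and 14.20 in ZxM, a difference of 0.12 (SE 0.0545). Of 4 elongation factor genes measured, 3 were tested with the filter and 0 passed. The bright eEF5 differed by 0.16 (SE 0.0570) and eEF1gamma by 0.10 (SE 0.0605), whereas eEF1delta, at 12.74 in ZxZ and 12.79 in ZxM, differed by -0.04 (SE 0.0600). Of 5 nascent chain, poly(A)-binding and termination factors, 4 were tested and 0 passed, with the bright Nacalpha at 0.06 (SE 0.0483) and pAbp at -0.11 (SE 0.0607) and eRF3 at -0.09 (SE 0.0595). After quantile normalization Rack1 was at 0.01, eEF5 at 0.04 and Nacalpha at -0.01.

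Genes of ribosome biogenesis, which make ribosomal RNA and assemble the subunits in the nucleolus, had mostly negative differences as deposited. Of 22 measured, 16 were tested with the filter, 0 were higher in ZxZ, 7 were lower in ZxZ at 10% FDR (17.6% of all genes tested) and 9 did not pass. The 7 were Nnp-1, mbm, Polr1B, Fib, bys, Surf6 and NHP2. Nnp-1, a ribosomal RNA processing factor, averaged 11.14 in ZxZ and 11.37 in ZxM with no overlap, a difference of -0.26 in the filtered fit (SE 0.0513, adjusted p = 0.0865, limma). In the same fit mbm, a nucleolar protein of growing neuroblasts, differed by -0.25 (SE 0.0664, adjusted p = 0.0866, limma) and Polr1B, a subunit of RNA polymerase I, by -0.13 (SE 0.0447, adjusted p = 0.0943, limma). The median of the 22 was -0.11 with 1 positive (Ns2), beside -0.09 for other genes between 8 and 13. It was -0.03 after quantile normalization, when 0 of the list were called, and 0 were called without the filter or without array weights. The 69 genes of mitochondrial ribosomal proteins, which serve the separate ribosome of that organelle, had a median of -0.11 with 0 positive (9 of 37 tested lower in ZxZ) and of -0.01 after quantile normalization.

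Because whole flies were used, fewer cells of a type and less RNA per cell cannot be told apart, and marker lists of the tissues were read beside the members. Of the ovary-related lists, eggshell genes had a median of -0.21, 0 of 13 positive and 1 of 13 tested called (lower in ZxZ), with a summed level of 16.22 to 16.85 in ZxZ and 16.57 to 17.05 in ZxM, and their median was -0.20 after quantile normalization. Germline genes had a median of -0.07, -0.01 after quantile normalization, with 4 of 15 positive and 5 of 13 tested called (lower in ZxZ, beside 17.6% of all genes tested), with a summed level of 15.55 to 15.65 in ZxZ and 15.54 to 15.72 in ZxM. Fat body and yolk genes had a median of 0.06, 8 of 11 positive and 1 of 8 tested called (higher in ZxZ, beside 1.1% of all genes tested), with a summed level of 16.69 to 16.85 in ZxZ and 16.53 to 16.73 in ZxM.

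The midgut list had a median of -0.09 with 2 of 9 positive and 0 called, the muscle list -0.02 with 4 of 11 positive and 0 called, and the neuron list -0.05 with 3 of 10 positive and 0 called. Their summed levels were 15.64 to 16.13, 13.07 to 13.61 and 11.00 to 11.16 in ZxZ against 15.94 to 16.19, 13.09 to 13.55 and 10.98 to 11.17 in ZxM, in the same order. Of the male lists, 14 of 14 accessory gland genes and 14 of 15 testis genes averaged below 8. In these lists 1 of 5 and 1 of 6 tested were called (higher in ZxZ, beside 1.1% of all genes tested). The genes called, SP at 6.67 and Mst77F at 6.76, were at levels that cannot be told from no expression. The part of tissue make-up in the differences of the ribosomal protein genes was not tested.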

How the data were processed

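The deposited log2 values were made by the authors with VSN, which covered background, calibration between arrays and transformation, and with an RMA summary of each probe set (affy, R 2.8.1). The generalised logarithm of VSN compresses differences between low values. The table had not been quantile normalized. Gene names came from the platform annotation. No scanner file was used, so background per probe set is unknown, and precision is limited by having 4 arrays a group. Groups and replicate numbers came from the labels. A gene was represented by its probe set of largest variance, and the 5991 genes above the median interquartile range were tested with limma 3.58.1 in R 4.3.3 (array weights, empirical Bayes, two-sided, ZxZ minus ZxM), with calls at 10% FDR after Benjamini-Hochberg adjustment. Differences are weighted by array, so they can depart from the difference of the group means. The methods' filter value of 0.5 was read as a quantile. A fit over all genes and one over all single-gene probe sets had no filter. The fit was tested on simulated data. Paralogue ratios, from the mean of a gene's probe sets, were compared by exact permutation tests.

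Genes were named by rule: all paralogues, in each subunit the 4 with the smallest p and the 2 largest and 2 lowest differences, the highest and lowest level, and up to 3 per related list by p. Outside this rule RpLP2, RpL40, RpS30, RpL17, RpL29 and RpS5b were also described singly. RpL7-like, RpL34a and RpS19b were named after their values were seen. The remaining genes are given in ranges, lists or counts, or for their several probe sets. The members, lists and rules were chosen with earlier results of these data known. Alternatives were the array weights, filter, probe set choice, normalization, low values, replicate block, an unmoderated t-test without weights, the prior and each array left out. Centring on hybridisation controls and the 18S control measure were added after seeing the data.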

Additional observations from a re-analysis of the deposited data

Results flagged for a closer look

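Of 118 groups of 4 arrays examined for a single array far from the others, covering the genes, ratios and array measures given above, 1 stood out, where chance gives about 1 in 20. The 3′ minus 5′ difference of the actin control probe sets was 0.3787 in ZxZ replicate 3, below the other ZxZ arrays at 0.4702 to 0.4873 and below the 0.391 to 0.593 of the ZxM arrays. The bright ribosomal protein genes of the same pool averaged 14.45, within the ZxZ range of 14.41 to 14.56.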

How the results depend on the processing

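Ribosomal protein genes were called only in settings that called at least 40.1% of all genes. Except after control centring, the share of members called was then below that of all genes. Of the members tested, 3 of 33 were called after centring arrays on their median (RpL7-like, RpLP0-like and RpS30, beside 61.5% of all genes) and 7 of 7 after centring on the hybridisation controls (99.7%), all lower in ZxZ. The RpS30 called was a probe set at 9.32 (-0.12), not the one at 14.09 described above. Leaving out 1 array gave 0 to 2 calls: RpL3 of 28 tested without ZxZ replicate 1 (higher in ZxZ, beside 48.4% of all genes called), RpLP0-like of 29 without ZxZ replicate 2 (40.1%) and of 20 without ZxM replicate 2 (42.6%), and RpL7-like and RpLP0-like of 15 without ZxM replicate 4 (49.5%). Without ZxZ replicate 3 or 4 or ZxM replicate 1 or 3, 0 of all genes were called. Under the other alternatives 0 members were called, where all genes gave 0% to 28.9% (0.167% with an unmoderated t-test without weights). Among the 47 probe sets, 1 was called after median centring (8.36% of all probe sets), 40 after control centring (98.7%) and 0 to 3 when an array was left out (3 without ZxM replicate 4, 16.2%). An interquartile range of at least 0.5 left 51 genes and no ribosomal protein gene. The 9 calls among mitochondrial ribosomal protein genes are not in the counts that follow. The 7 calls among the related translation genes became 0 without array weights, without the filter, at that interquartile range, after either form of quantile normalization, after cyclic loess, with the replicate block and with the unmoderated t-test, settings in which at most 10 genes of all tested were called. They became 18 after median centring, 14 after control centring and 0 to 17 when an array was left out (0 without ZxZ replicate 3 or 4 or ZxM replicate 1 or 3, 13 without ZxZ replicate 1, 15 without ZxM replicate 2 and 17 without ZxM replicate 4), beside the shares of all genes given above.

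The median of all members (0.114) was -0.00214 after quantile normalization, 6e-06 with the probe sets held, -0.167 after control centring and 0.0479 to 0.191 without an array (lowest without ZxM replicate 4, highest without ZxM replicate 1). The large subunit median (0.112) was 7.8e-05, 6e-06, -0.167 and 0.0406 to 0.185 in the same settings. The small subunit median (0.121) was -0.00354, -5.1e-05, -0.195 and 0.0553 to 0.204, and 0.0326 after cyclic loess. After cyclic loess the median of all members was 0.0431 and that of the large subunit 0.0502. Large minus small (-0.0214) was 0.0123 after quantile normalization, 0.00337 with the probe sets held, 0.0101 after cyclic loess, 0.00302 after control centring and -0.0278 to -0.00537 without an array (nearest 0 without ZxZ replicate 1). Quantile normalization without held probe sets, cyclic loess and control centring took dimmer probe sets for RpL3, RpS29, RpS30 and RpS7. So did the fits without ZxZ replicate 1 (RpS30) and without ZxM replicate 4 (RpL3, RpS30 and RpS7). The subunit values there do not compare the same probe sets. With the probe sets held, the median of all members was 0.0502 after cyclic loess and -0.155 after control centring. The causes were not tested.

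After quantile normalization the sign turned for RpL41 (-0.0172), RpL7-like (0.0113), RpLP1 (-0.0104), RpS10a (-0.0178), RpS26 (-0.00214), RpS27A (-0.00494) and RpS28b (-0.0224), and with the probe sets held for the same genes (-0.0173, 0.0111, -0.0104, -0.0176, -0.00218, -0.00486 and -0.0224). Among the ratios it turned for RpL37-1 minus RpL37-2 (-0.0215), RpS28-like minus RpS28b (0.0217) and RpS28a minus RpS28b (0.0438). After median centring it turned for RpL22-like (-0.0274), RpL3 (-0.0649), RpL37-2 (-0.00295), RpS10a (-0.0346) and RpS28-like (-0.00305), and after cyclic loess for RpS10a (-0.0112). The value of RpL3 after median centring, and the negative one without ZxM replicate 4, belong to another of its probe sets, at 7.39, which then had the largest variance, while the probe set described above was at 0.12 after median centring. Without an array the differences ran from -0.0324 to 0.0301 for RpS10a, -0.0268 to 0.0354 for RpL22-like, -0.0158 to 0.0787 for RpL37-2, -0.0834 to 0.00975 for RpL34a, -0.141 to 0.0155 for RpL7-like, -0.0117 to 0.194 for RpL3, -0.00454 to 0.0657 for RpS28-like, -0.0313 to 0.111 for RpL37-1 minus RpL37-2 and -0.0494 to 0.00533 for RpS28-like minus RpS28a. No paralogue pair passed an adjusted p of 0.05 under any setting run, where 1 pair alone at the smallest p of 0.0286 is adjusted to 0.171. That smallest p does not hold for the replicate block. There a sign-flip test over 4 differences between pools cannot reach 0.05 whatever the values, and RpLP0 minus RpLP0-like had an adjusted p of 0.5625.

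Both kinds of mating were made in each of 4 replicates, but the labels do not say that a number marks a shared day or batch. Pools of the same number, 1 to 4 in order, had r of 0.147, -0.23, -0.188 and 0.16. Replicates 1 and 4 were best matched by their own number in the other mating, whereas replicate 2 matched 3 and 3 matched 2. This check does not settle whether the pools are paired. The main fit left them unpaired, and the replicate block was an alternative. With the replicate block 1 gene of all genes tested was called, 0 members were called and the median of the members was 0.108.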

Other observations

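The 3 control probe sets for 18S ribosomal RNA, a component of the small subunit that labelling from poly(A) should largely leave out, were at 8.90, 8.56, 8.79 and 8.95 in ZxZ against 9.84, 9.34, 8.61 and 8.37 in ZxM. The spread was 0.172 in ZxZ and 0.674 in ZxM (SD, n = 4 each), with ZxM replicates 1 and 2 the highest and ZxM replicates 3 and 4 among the lowest, and the difference of the means was -0.24 (exact permutation test, two-sided, p = 0.514, adjusted 0.579 over 9 array measures). This order of the ZxM pools was not that of the bright ribosomal protein genes, which were highest in replicates 3 and 1. The measure was added after the data were seen.

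The poly-A controls, transcripts added before labelling, averaged 7.88 ± 0.0404 in ZxZ and 7.83 ± 0.0654 in ZxM (SD, n = 4 each), a difference of 0.05 (exact permutation test, two-sided, p = 0.257, adjusted 0.386), beside 0.23 for the hybridisation controls.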
